A study of Mus musculus with 59 samples.

Results

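The 10 genes described here are 9 integrin subunits, Itga2b, Itga5, Itga6, Itga7, Itgav, Itgb1, Itgb3, Itgb5 and Itgb6, and Itgb1bp2 (melusin), which is not a subunit but a muscle protein that binds the cytoplasmic tail of the beta1 chain. They were chosen by symbol, as candidate partners of the secreted protein Fibcd1, and all 10 of the 10 symbols were found among the 47643 rows of the expression table. RNA-seq libraries came from 59 muscle samples of female NCI Ath/nude mice, which lack T cells, at 4 months of age, and all mice carried a human melanoma, so that no group is free of tumour. The diaphragm groups were cachectic melanoma with mock treatment (n = 10), cachectic melanoma with recombinant Fibcd1 (rFibcd1, n = 10), non-cachectic melanoma with mock treatment (n = 9) and non-cachectic melanoma with rFibcd1 (n = 10). The study's own analysis drew on fewer samples of both cachectic diaphragm groups. Which samples it set aside is not given in the sources used here, so every sample the labels place in these groups was used. Mock injections were PBS with BSA. The limb groups, which have no rFibcd1 arm, hold 5 tibialis anterior and 5 soleus samples for each of the melanomas. A melanoma effect is therefore a difference between mice with different tumours and not between mice with and without a tumour. Per the study's methods, samples of an experiment stem from different animals, which the labels do not name. Whether samples of different muscles came from the same mice is not given in the labels. Comparisons between muscles treat them as unpaired unless a block is named.

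Integrins are cell-surface receptors made of an alpha and a beta chain, which join the extracellular matrix outside the cell to talin, vinculin and actin inside it and signal through focal adhesion kinase and ERK. In muscle fibres the laminin receptor alpha7beta1 sits at the sarcolemma, at costameres and at the junctions with tendon and nerve, where it works beside the dystrophin complex. Fibcd1 carries a fibrinogen-related domain, and fibrinogen is bound by alpha-IIb-beta3 (Itga2b with Itgb3) on platelets, by alpha-V-beta3 (Itgav with Itgb3) and by alpha5beta1 (Itga5 with Itgb1), which is the reason that these subunits are of interest.

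Itga2b was the subunit that the study examined by qPCR, and its primer pair is shown because it defines which part of the transcript that assay reads. The study also reported Itga2b RNA in cultured C2C12 myotubes by RNA-seq. Itga2b siRNAs lowered phosphorylated ERK in those myotubes, with and without added rFibcd1. Itga2b lies on the minus strand of chromosome 11 (chr11:102453297-102470122, GRCm38, GENCODE M21). Both primers matched 1 annotated transcript, Itga2b-201, in its coding sequence, at bases 642 to 661 and 739 to 758 of the transcript, which gives a product of 117 bases. The forward primer lies in exon 4 of 30 (chr11:102467408-102467427). The reverse primer crosses the junction of exons 4 and 5 (between chr11:102467088 and chr11:102467330), and the capitals mark its bases in exon 5.
Itga2b forward: ggtaggaggctgcttcttgg
Itga2b reverse: TATCGCTTGTCTCCGCgaaa

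Promoters are shown for Itga5 and Itgb1, whose chains pair with each other and which were both called higher with the cachectic melanoma in both limb muscles as deposited, although the direction of Itgb1 in tibialis anterior turned after scaling. RefSeq promoter sequences on GRCm38.p6 were given for 6 of the 10 members (none for Itga6, Itga7, Itgb3 and Itgb1bp2). The 250 bases before the start were searched on both strands for a GC box (GGGCGG), an E-box of the myogenic type (CAGCTG), an AP-1 motif (TGACTCA) and a STAT motif (TTCNNNGAA). The GC box occurred 2 times in Itga5 (chr15:103366792-103367041, minus strand) and 1 time in Itgb1 (chr8:128685404-128685653, plus strand), and is in capitals below in either orientation. It is present in 32.7% of 32851 promoter entries of the same length. The other 3 motifs, present in 13%, 4.46% and 7.02% of entries, were not found in either window.
Itga5 promoter: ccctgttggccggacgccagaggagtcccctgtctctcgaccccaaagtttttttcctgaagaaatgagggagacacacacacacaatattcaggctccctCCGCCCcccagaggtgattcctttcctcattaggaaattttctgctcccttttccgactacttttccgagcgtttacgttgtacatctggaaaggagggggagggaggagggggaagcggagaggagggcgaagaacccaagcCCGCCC
Itgb1 promoter: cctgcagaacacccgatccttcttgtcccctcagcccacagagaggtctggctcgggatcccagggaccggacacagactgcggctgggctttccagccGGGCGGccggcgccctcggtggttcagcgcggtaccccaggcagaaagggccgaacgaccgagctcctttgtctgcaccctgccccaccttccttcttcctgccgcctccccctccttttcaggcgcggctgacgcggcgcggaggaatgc

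Values are TPM, transcript abundance per length scaled to the same total in every library, so levels of different genes can be set side by side, but the read depth behind a value is unknown and no counting interval can be given. The libraries had 16436 to 19456 genes above 0. As a check of the labels, the summed TPM of 6 myofibre genes was between 38051 and 83196 in every library, and that of 6 epithelial and mesothelial genes was 48.6 to 254 in the diaphragm, which is lined by mesothelium, and 0.246 to 5.87 in the limb muscles. Some features of the libraries move with the melanoma and touch the results. The mitochondrial share of TPM was lower with the cachectic melanoma. Its medians were 38.7% (mock diaphragm), 40.6% (tibialis anterior) and 30.6% (soleus) beside 47.3%, 47.7% and 41.0% with the non-cachectic one. As every library has the same total, the summed TPM of the other genes is higher where that share is lower. This need not hold for a single gene, and its part in the shifts below was not tested. The median log2 fold change of all genes tested was 0.20 for the mock diaphragm, 0.41 for tibialis anterior and 0.09 for soleus, and the fold changes of the members with the melanoma are therefore also given after median-ratio scaling, which brings those medians to 0.0012, -0.01 and 0.02. A block of genes marked by the pseudogene Pcna-ps2 was in a high or a low state, which crossed the diaphragm groups (high in 9 of 10 cachectic mock and 3 of 9 non-cachectic mock libraries) but was high in 5 of 5 cachectic and 0 of 5 non-cachectic libraries of each limb muscle, where state and melanoma cannot be told apart. The cachectic tibialis anterior library TA8 and soleus library SOL8 (libraries are named by muscle and the number of their column) had the lowest mitochondrial shares of their groups, 25.1% and 24.1%, and stood apart in several members, so the limb fold changes of the members are also given without them.

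The members covered a wide range of levels. In the non-cachectic mock diaphragm the order by mean TPM was Itgb1bp2 (186 ± 9.52, SD, n = 9), Itgb1 (123 ± 11.7), Itgb5 (67.4 ± 5.90), Itga7 (66.5 ± 6.86), Itga5 (12.4 ± 1.89), Itga6 (11.9 ± 2.15), Itgb6 (11.8 ± 1.66), Itgav (4.71 ± 0.519), Itgb3 (2.67 ± 0.857) and Itga2b (1.38 ± 0.968). The ranges of Itgb5 and Itga7 overlapped, as did those of Itga5, Itga6 and Itgb6 and those of Itgav, Itgb3 and Itga2b, each with its neighbour in that order, while Itgb1bp2, Itgb1 and the pair below them did not overlap. Itga7 had the highest mean of the 19 alpha-subunit rows and Itgb1 the highest of the 8 beta-subunit rows in each of the 8 groups. Itga7 held 47.3% ± 4.65 (SD, n = 9) of the summed alpha-subunit TPM in the non-cachectic mock diaphragm, and its share was 60.3% ± 1.38 (SD, n = 5) for the non-cachectic soleus. Itga2b had the lowest mean of the members in each of the 8 groups.

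**Figure D1:**
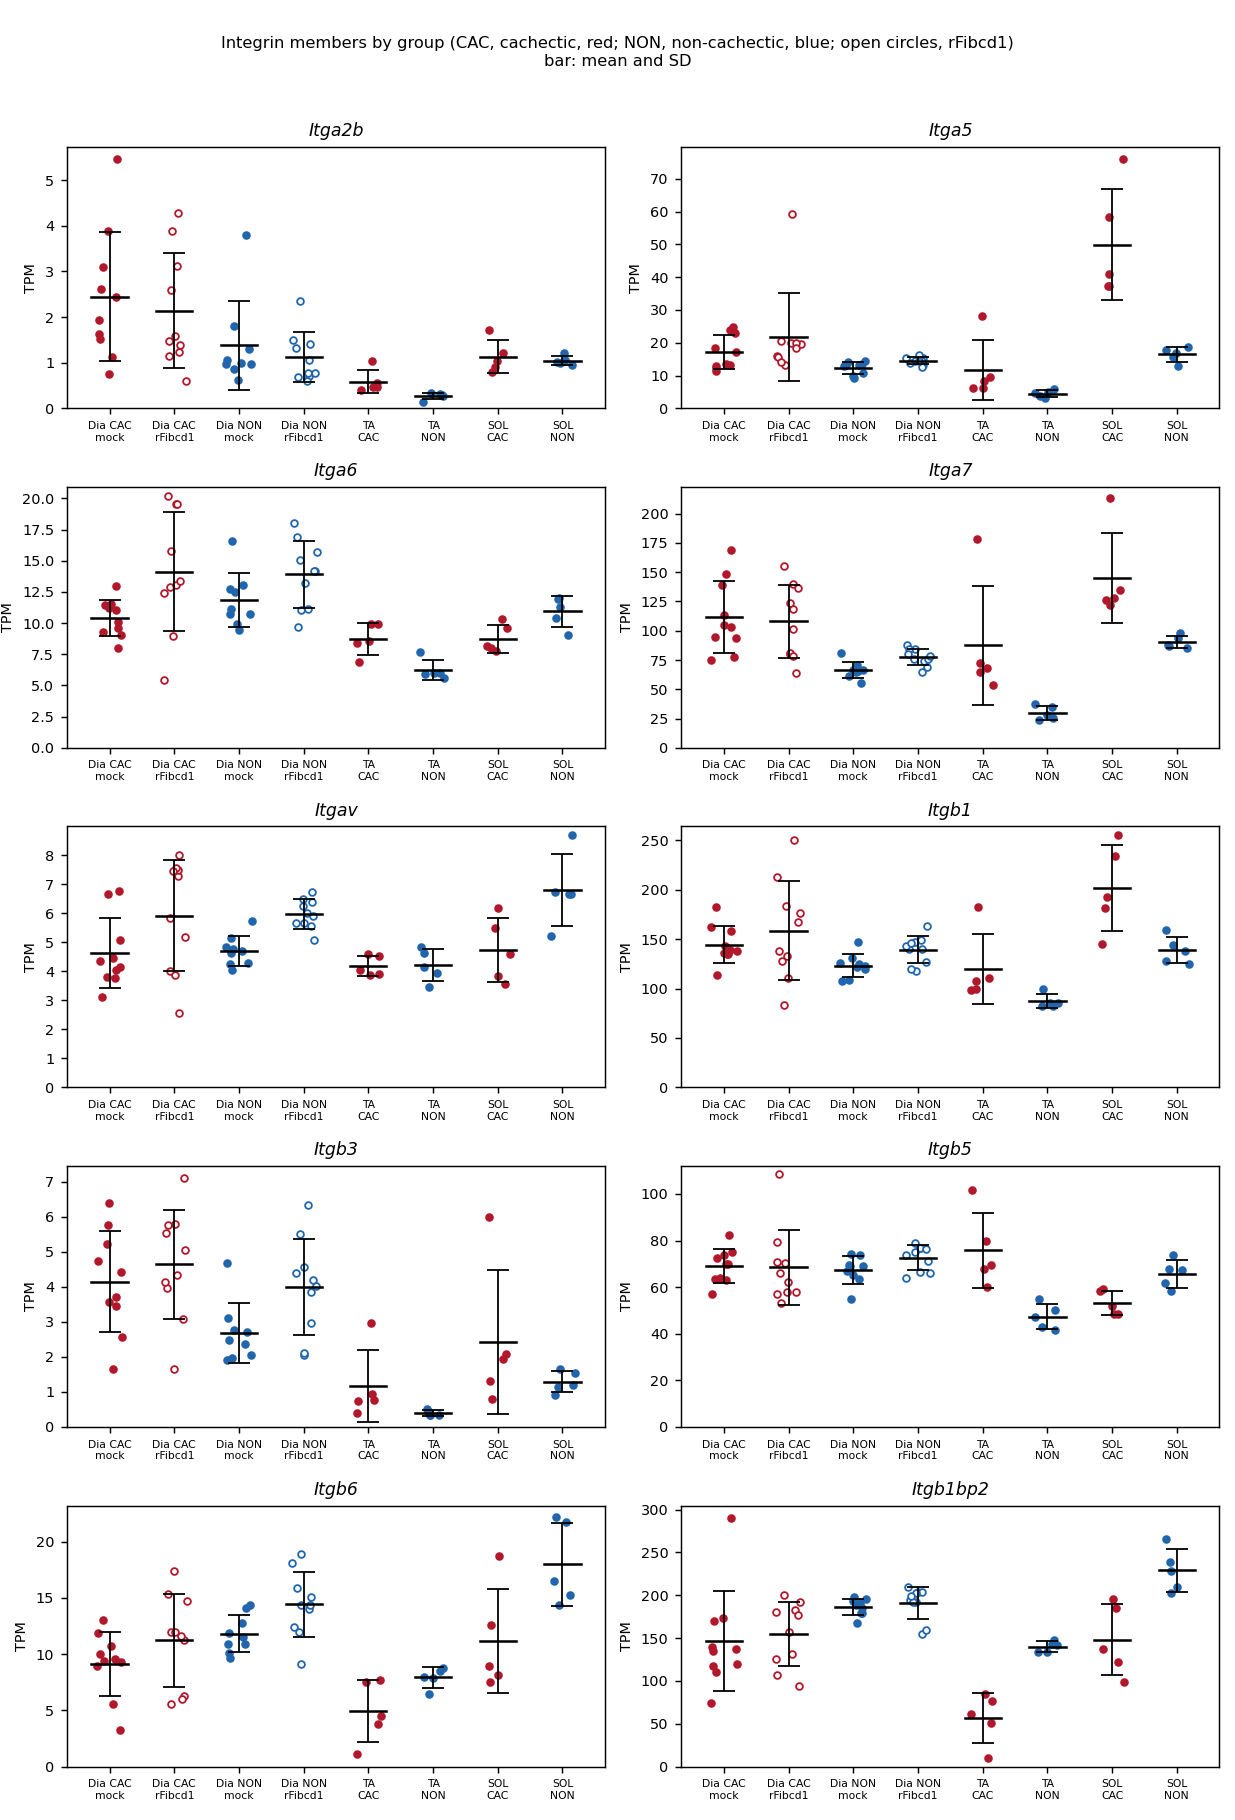
TPM of the 10 members (1 panel each, linear axis from 0) in every library of the 8 groups (Dia, diaphragm; TA, tibialis anterior; SOL, soleus), with bars for the group mean and SD. Itga7 and Itgb1bp2 move apart in the 2 limb muscles, where the cachectic and non-cachectic libraries of both genes do not overlap, and single high libraries are visible for Itga5 in the cachectic rFibcd1 diaphragm (59.2 TPM) and in cachectic tibialis anterior (28.1 TPM).

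The muscles themselves expressed almost no Fibcd1 (chr2:31813290-31846005, minus strand). Its highest value was 0.0118 TPM in the 39 diaphragm libraries and also 0.0118 TPM in the 10 tibialis anterior libraries, with a median listed at 0 in all 6 groups of those muscles. In soleus it was at 0.0236 to 0.134 TPM with the cachectic and 0.0692 to 0.273 TPM with the non-cachectic melanoma. It was under the filter on low values in every fit and was not tested.

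Itga2b, the alpha chain of the platelet fibrinogen receptor, was present at a low level in every library. In the mock diaphragm it had a lowest, median and highest value of 0.754, 2.18 and 5.45 TPM with the cachectic melanoma and of 0.617, 0.999 and 3.81 TPM with the non-cachectic one, with overlap. Dia68, at 3.81 TPM, stood alone in the non-cachectic group, and 6 of the 10 cachectic libraries lay above its next value of 1.81 TPM. The log2 fold change was 0.51 ± 0.22 (SE; limma, adjusted p = 0.0715) and did not pass the test. After scaling it was 0.36 ± 0.20 (adjusted p = 0.229). As deposited it was called higher when Dia68 (log2 fold change 0.64, adjusted p = 0.0197), Dia22 (adjusted p = 0.0273) or Dia9 (adjusted p = 0.0454) was left out. With rFibcd1 it was 0.50 ± 0.22 (adjusted p = 0.133), or 0.43 ± 0.20 after scaling (adjusted p = 0.151). In tibialis anterior, where Itga2b missed the filter on low values, the cachectic libraries were at 0.395, 0.474, 0.475, 0.545 and 1.03 TPM and the non-cachectic ones at 0.142, 0.271, 0.294, 0.309 and 0.335 TPM. These groups did not overlap, with a difference of 0.31 in log2(TPM + 1) (exact permutation test, two-sided p = 0.00794, the smallest that 5 against 5 allow), and after scaling the difference was 0.19 (p = 0.0159). Without TA8 it was 0.21 (exact permutation test, p = 0.0159, the smallest that 4 against 5 allow). In soleus the means were 1.13 ± 0.362 and 1.04 ± 0.102 TPM (SD, n = 5 each), with a log2 fold change of 0.05 ± 0.12 (adjusted p = 0.795), which was 0.0030 ± 0.10 after scaling and -0.04 ± 0.10 without SOL8.

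Itga2b followed the platelet genes from library to library. Across the 39 diaphragm libraries, and as deviations from the group means, its log2(TPM + 1) correlated with the mean log2(TPM + 1) of 9 platelet genes (Pf4, Ppbp, Gp9, Gp1ba, Gp1bb, Gp5, Gp6, Clec1b and Treml1) with Pearson's r = 0.965 and Spearman's rho = 0.935 (permutation within groups, two-sided p = 1e-05 for each, the smallest that 100000 resamples give). This was the only relation across samples that was tested, so the p-values were not adjusted. Without the 2 libraries farthest from the median of the platelet mean, r was 0.955 over 37 libraries, and within the high-state libraries it was 0.972 (n = 26) and within the low-state ones 0.876 (n = 12, p = 0.00071, with the 1 library that was alone in its group and state left out). Of all 14092 genes with a mean of at least 0.5 TPM, the 5 whose deviations were most like those of Itga2b over all 59 libraries were Gp9 (r = 0.933), the platelet glycoprotein IX, Ppbp (0.922), a platelet chemokine, Tubb1 (0.896), the tubulin of platelets, Nrgn (0.835) and Ctla2a (0.734).

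Some of the platelet genes were higher with the cachectic melanoma. All 9 were above 0 in each of the 8 groups, and their summed TPM ran from 14.02 to 79.4 (median 41.3) in the cachectic mock diaphragm and from 14.5 to 46.3 (median 19.1) in the non-cachectic one, so the groups overlapped. The sum was 2.38 to 3.74 in non-cachectic tibialis anterior. Of the 3 that passed the filter in the diaphragm 2 rose in the mock comparison, where 33.5% of all genes tested were called, namely Pf4 (32.4 against 16.7 TPM, adjusted p = 0.00221) and Gp9 (2.59 against 0.857 TPM, adjusted p = 0.0295). After scaling Pf4 was still called (log2 fold change 0.64 ± 0.18, adjusted p = 0.0124) and Gp9 was not (0.80 ± 0.31, adjusted p = 0.0737). With rFibcd1 1 of the 3 rose. In the limb muscles 1 gene, Pf4, passed the filter, and it rose in tibialis anterior as deposited, but not after scaling (0.65 ± 0.33, adjusted p = 0.142), and was not called in soleus on either scale. In whole muscle a change in the number of platelets and a change in RNA per cell cannot be told apart, and whether any Itga2b came from fibres was not tested.

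**Figure D2:**
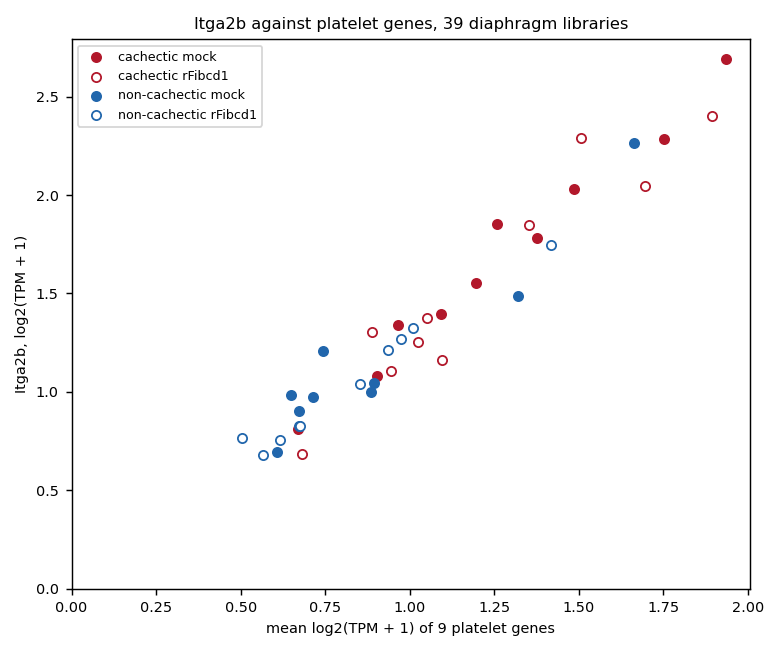
Log2(TPM + 1) of Itga2b (vertical axis) against the mean log2(TPM + 1) of 9 platelet genes (horizontal axis) in 39 diaphragm libraries, coloured by melanoma, with open circles for rFibcd1. The libraries of all 4 groups lie along 1 line (r = 0.965 after group means are removed), and the highest library of both measures is in the cachectic mock group (5.45 TPM of Itga2b).

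Itgb3, the beta chain that pairs with Itga2b and Itgav, lies on the same chromosome as Itga2b (chr11:104608000-104670476, plus strand). Its lowest, median and highest values in the mock diaphragm were 1.67, 4.07 and 6.41 TPM with the cachectic and of 1.91, 2.49 and 4.69 TPM with the non-cachectic melanoma. The groups overlapped and the log2 fold change of 0.46 ± 0.18 (SE; adjusted p = 0.0512) did not pass the test. After scaling it was 0.28 ± 0.14 (adjusted p = 0.181). As deposited Itgb3 was called higher when Dia9 (0.56, adjusted p = 0.0156), Dia68 (adjusted p = 0.0234) or Dia22 (adjusted p = 0.0295) was left out. Itgb3 also missed the filter in tibialis anterior, at 0.412, 0.729, 0.775, 0.934 and 2.98 TPM with the cachectic and 0.343, 0.346, 0.347, 0.457 and 0.509 TPM with the non-cachectic melanoma. The difference there was 0.53 in log2(TPM + 1) (exact permutation test, two-sided p = 0.0238, or 0.0556 after scaling), and its highest value was that of TA8. In a limma fit without the filter it was not called (adjusted p = 0.0989). Without TA8 the difference was 0.28 (exact permutation test, p = 0.0476). In soleus the value of SOL8, 5.99 TPM, lay above the other 4 cachectic libraries, at 0.797 to 2.07 TPM, and the log2 fold change was 0.42 ± 0.29 (adjusted p = 0.315), 0.36 ± 0.27 after scaling and 0.12 ± 0.17 without SOL8 (adjusted p = 0.650).

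Itgav (chr2:83724397-83806916, plus strand), the alpha chain of the vitronectin receptors, had means close between the melanomas in mock diaphragm and tibialis anterior as deposited. Mock diaphragm means were 4.63 ± 1.21 TPM (cachectic, SD, n = 10) and 4.71 ± 0.519 TPM (non-cachectic, SD, n = 9), and tibialis anterior means were 4.19 ± 0.346 and 4.21 ± 0.550 TPM (SD, n = 5 each), with a log2 fold change of -6.73e-05 ± 0.11 as deposited and -0.03 ± 0.09 without TA8 (adjusted p = 0.796). After scaling Itgav was called lower in tibialis anterior (log2 fold change -0.42 ± 0.10, adjusted p = 0.00932). In mock diaphragm the value of -0.24 ± 0.10 after scaling did not pass the test (adjusted p = 0.0792). In soleus the cachectic libraries were at 3.57, 3.84, 4.60, 5.50 and 6.18 TPM and the non-cachectic ones at 5.20, 6.66, 6.68, 6.75 and 8.69 TPM, with some overlap. Itgav fell there by 0.45 on the log2 scale (SE 0.15, adjusted p = 0.0464), or by 0.52 after scaling (adjusted p = 0.0166), and as deposited this call was lost when both number 8 libraries were left out (log2 fold change -0.39, adjusted p = 0.0927) and without any of 7 of the 10 soleus libraries.

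The laminin receptor chain Itga7 (chr10:128933818-128958282, plus strand) rose with the cachectic melanoma in each muscle. Mock diaphragm libraries had a lowest, median and highest value of 74.8, 104 and 169 TPM with the cachectic and of 55.7, 66.2 and 81.1 TPM with the non-cachectic melanoma, and 2 of the 10 cachectic libraries lay within the range of the other group. The log2 fold change was 0.70 ± 0.14 (SE; adjusted p = 0.000335), and 0.46 ± 0.15 after scaling (adjusted p = 0.0296). In tibialis anterior the cachectic libraries were at 53.6, 65.1, 68.5, 72.7 and 178 TPM and the non-cachectic ones at 23.5, 25.6, 28.3, 34.6 and 37.6 TPM. The groups did not overlap, and the log2 fold change was 1.39 ± 0.27 (adjusted p = 0.00282), 0.91 ± 0.18 after scaling (adjusted p = 0.00336) and 1.11 ± 0.14 without TA8 (adjusted p = 0.000113). In soleus the values were 122, 126, 128, 135 and 213 TPM against 85.6, 86.9, 87.9, 93.9 and 98.3 TPM, again with no overlap, and the log2 fold change was 0.64 ± 0.14 (adjusted p = 0.00706), 0.56 ± 0.12 after scaling and 0.49 ± 0.07 without SOL8.

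Within the high-state mock diaphragm libraries Itga7 averaged 116 ± 30.2 TPM (SD, n = 9) with the cachectic and 72.8 ± 7.54 TPM (SD, n = 3) with the non-cachectic melanoma. The log2 fold change among high-state libraries was 0.62 ± 0.22, close in size to that of all libraries, and did not pass the test (adjusted p = 0.0864). With library state as a term in the fit the call for Itga7 in the mock diaphragm was kept. With rFibcd1 Itga7 averaged 108 ± 31.3 TPM with the cachectic and 77.4 ± 7.08 TPM with the non-cachectic melanoma (SD, n = 10 each). It was called higher there too, with a log2 fold change of 0.42 ± 0.13 (adjusted p = 0.0410), but not after scaling (0.34 ± 0.15, adjusted p = 0.124), with library state as a term (adjusted p = 0.0535) or with Dunn tests (adjusted p = 0.295), and without any of 10 of the 20 libraries the call was lost.

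Itgb1, the common beta chain that pairs with Itga7, Itga5 and Itga6 (chr8:128685654-128733200, plus strand), was high throughout and changed less. In the mock diaphragm it averaged 144 ± 19.0 TPM with the cachectic and 123 ± 11.7 TPM with the non-cachectic melanoma (SD, n = 10 and 9), with a log2 fold change of 0.22 ± 0.12 (adjusted p = 0.157) as deposited and of -0.02 ± 0.07 after scaling (adjusted p = 0.894). In soleus it was at 145, 182, 192, 234 and 255 TPM against 125, 128, 138, 144 and 159 TPM, with overlap of 1 cachectic library, and rose by 0.51 ± 0.14 on the log2 scale (adjusted p = 0.0216), by 0.43 ± 0.10 after scaling (adjusted p = 0.00973) and by 0.45 ± 0.14 without SOL8 (adjusted p = 0.0441). In tibialis anterior the values of 98.3, 99.5, 108, 111 and 182 TPM against 82.5, 82.6, 85.3, 85.7 and 99.7 TPM gave a log2 fold change of 0.42 ± 0.16 (adjusted p = 0.0395) as deposited but of -0.07 ± 0.06 after scaling (adjusted p = 0.356), so its direction in tibialis anterior and in the mock diaphragm depends on the scale. Without TA8 the log2 fold change as deposited was 0.26 ± 0.07 (adjusted p = 0.00808). The call in tibialis anterior was also lost without any of 6 of its 10 libraries, and the call in soleus without SOL63 or SOL64.

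Itga6 (chr2:71745616-71858416, plus strand), the alpha chain of a further pair of laminin receptors, showed the same dependence. In tibialis anterior it was at 6.87, 8.41, 8.57, 9.91 and 9.92 TPM with the cachectic and at 5.60, 5.89, 5.97, 6.03 and 7.66 TPM with the non-cachectic melanoma, a log2 fold change of 0.43 ± 0.13 (adjusted p = 0.0152) as deposited that turned to -0.01 ± 0.10 after scaling (adjusted p = 0.945) and was 0.38 ± 0.11 without TA8 (adjusted p = 0.00935). Means in the mock diaphragm were 10.4 ± 1.47 and 11.9 ± 2.15 TPM (SD, n = 10 and 9) and the log2 fold change was -0.17 ± 0.15 (adjusted p = 0.391), or -0.38 ± 0.11 after scaling (adjusted p = 0.0123). With library state as a term in the fit it was called lower as deposited too (-0.43 ± 0.13, adjusted p = 0.0227). In soleus it was -0.29 ± 0.11 (adjusted p = 0.0658), or -0.36 ± 0.09 after scaling (adjusted p = 0.0124) and -0.32 ± 0.11 without SOL8 (adjusted p = 0.0570). As deposited it was called lower in soleus without SOL10 (adjusted p = 0.0368) or SOL63 (adjusted p = 0.0428).

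Itga5 (chr15:103344286-103366763, minus strand), the alpha chain of the fibronectin receptor, had the largest rise of the members in soleus. Its cachectic libraries were at 37.2, 37.3, 40.9, 58.4 and 75.9 TPM and the non-cachectic ones at 12.9, 15.7, 17.0, 17.9 and 18.7 TPM. The groups did not overlap, and the log2 fold change was 1.50 ± 0.19 (adjusted p = 0.000441), 1.42 ± 0.16 after scaling and 1.33 ± 0.15 without SOL8. In tibialis anterior the values were 6.23, 6.26, 8.43, 9.41 and 28.1 TPM against 3.29, 3.69, 4.74, 4.83 and 5.82 TPM, also without overlap. The log2 fold change of 1.01 ± 0.33 (adjusted p = 0.0217) was 0.59 ± 0.24 after scaling, which did not pass the test (adjusted p = 0.0706), and the call was also lost without TA61 (adjusted p = 0.0504), while the log2 fold change was 0.65 ± 0.16 without TA8 (adjusted p = 0.00426). Itga5 in the mock diaphragm had a lowest, median and highest value of 11.4, 15.3 and 24.8 TPM against 9.34, 13.2 and 14.3 TPM, and the log2 fold change of 0.39 ± 0.17 (adjusted p = 0.0685) did not pass. After scaling it was 0.17 ± 0.15 (adjusted p = 0.474). As deposited it was called higher without Dia6 (adjusted p = 0.0425) or Dia22 (adjusted p = 0.0477).

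Itgb5 and Itgb6, which also pair with Itgav, both fell in soleus and had opposite signs in tibialis anterior, a difference that was not tested. Itgb5 (chr16:33829665-33949338, plus strand) was at 59.9, 67.9, 69.6, 80.0 and 102 TPM in cachectic and at 41.5, 43.0, 47.3, 50.1 and 55.1 TPM in non-cachectic tibialis anterior, with no overlap and a log2 fold change of 0.65 ± 0.14 (adjusted p = 0.00462), which was 0.16 ± 0.09 after scaling (adjusted p = 0.187) and 0.54 ± 0.10 without TA8 (adjusted p = 0.00102). In soleus it fell by 0.30 on the log2 scale (SE 0.09, adjusted p = 0.0317, lost without any of 5 single libraries), from 65.8 ± 5.93 to 53.3 ± 5.21 TPM (SD, n = 5 each). It was also called in soleus after scaling (-0.38 ± 0.12, adjusted p = 0.0384) and without SOL8 (-0.29 ± 0.09, adjusted p = 0.0477). The mock diaphragm log2 fold change was 0.03 ± 0.09 (adjusted p = 0.769) as deposited and turned to -0.20 ± 0.12 after scaling (adjusted p = 0.245). Itgb6 (chr2:60598292-60722643, minus strand), known as an epithelial beta chain, had lower means with the cachectic melanoma in each muscle, at 9.13 ± 2.87 against 11.8 ± 1.66 TPM in mock diaphragm, 4.92 ± 2.77 against 7.92 ± 0.916 TPM in tibialis anterior and 11.2 ± 4.64 against 18.0 ± 3.70 TPM in soleus. As deposited, the soleus difference was the 1 of the 3 that was called (log2 fold change -0.69 ± 0.22, adjusted p = 0.0397), and the call was lost without SOL8 (-0.58 ± 0.22, adjusted p = 0.0851) and without 6 other single soleus libraries. In tibialis anterior the log2 fold change was -0.75 ± 0.32 (adjusted p = 0.0584), or -0.42 ± 0.18 without TA8 (adjusted p = 0.0589). It was called lower there without TA6 (adjusted p = 0.0241) or TA9 (adjusted p = 0.0342). With library state as a term Itgb6 was called lower in the mock diaphragm as deposited (-0.59 ± 0.19, adjusted p = 0.0311). After scaling it was called lower in all 3 muscles (-0.61 ± 0.17, -1.18 ± 0.41 and -0.77 ± 0.21). The epithelial and mesothelial markers Msln, Upk3b, Krt19, Epcam, Cdh1 and Wt1 missed the filter in both limb muscles, although Msln reached 5.55 TPM in 1 cachectic tibialis anterior library. Itgb6 ranged there from 1.09 TPM, in TA8, to 22.1 TPM, in a non-cachectic soleus. The part of epithelial cells in its values was not tested.

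Itgb1bp2 (chrX:101449088-101453541, plus strand) fell with the cachectic melanoma in all 3 muscles. In tibialis anterior it was at 9.66, 51.4, 60.8, 76.8 and 84.5 TPM with the cachectic and at 134, 134, 142, 143 and 148 TPM with the non-cachectic melanoma. The groups did not overlap, and it fell by 1.58 on the log2 scale (SE 0.45, adjusted p = 0.0131). TA8 held the lowest value, and without it the log2 fold change was -1.05 ± 0.13 (adjusted p = 7.96e-05). In soleus it was at 99.1, 122, 138, 185 and 196 TPM against 203, 210, 229, 238 and 266 TPM, without overlap, with a log2 fold change of -0.67 ± 0.17 (adjusted p = 0.0159), or -0.61 ± 0.18 without SOL8 (adjusted p = 0.0349). In the mock diaphragm the lowest, median and highest values were 74.7, 136 and 291 TPM with the cachectic and 168, 189 and 198 TPM with the non-cachectic melanoma, with overlap. It fell there by 0.43 on the log2 scale (SE 0.15, adjusted p = 0.0260), and the library at 291 TPM, Dia22, is the 1 low-state library of its group. The call was lost without Dia8 (adjusted p = 0.0522) or Dia20 (adjusted p = 0.0646) and with library state as a term (log2 fold change -0.38 ± 0.16, adjusted p = 0.120). After scaling the falls were 0.66, 2.07 and 0.75 on the log2 scale in mock diaphragm, tibialis anterior and soleus, and all 3 were called.

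Counted over the members, 2 of 10 were called in the mock diaphragm (Itga7 higher and Itgb1bp2 lower), where 33.5% of the 13426 genes tested were called. With rFibcd1 it was 1 of 10 (Itga7), against 9.11% of genes. In tibialis anterior 6 of the 8 members that passed the filter were called, 5 higher and 1 lower, against 60.2% of 11105 genes, and in soleus 7 of 10, 3 higher and 4 lower, against 25.1% of 11957 genes. The median log2 fold change of the members tested was 0.13 (mock diaphragm), 0.42 (tibialis anterior) and -0.12 (soleus), beside medians of 0.20, 0.41 and 0.09 over all genes tested. After scaling, 1 member was higher and 3 were lower in the mock diaphragm, and the same numbers held for tibialis anterior, while 3 were higher and 5 lower in soleus. On that scale 16.5%, 40% and 28.6% of all genes were called in these muscles. Itga7 and Itgb1bp2 are called in all 3 muscles with either scale.

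**Figure D3:**
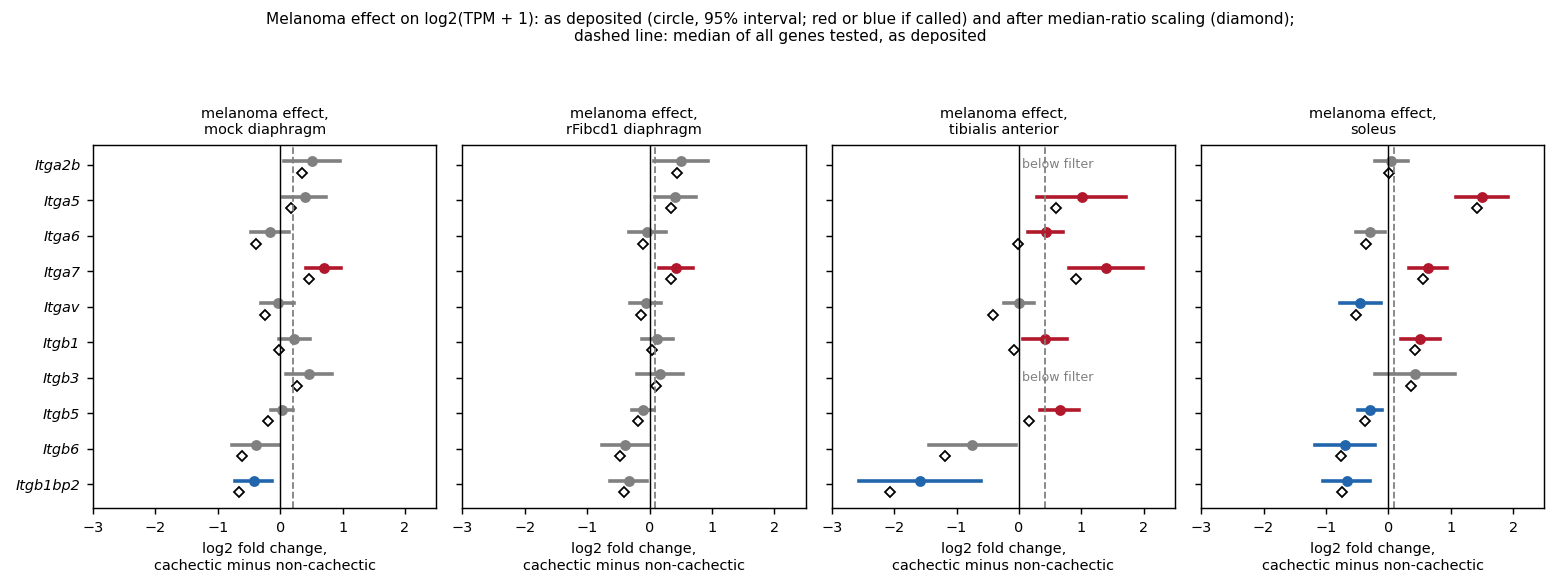
Log2 fold change of each member (cachectic minus non-cachectic melanoma, log2(TPM + 1)) in the mock diaphragm, the rFibcd1 diaphragm, tibialis anterior and soleus. Circles with 95% intervals are values as deposited, red or blue where called higher or lower, diamonds are values after median-ratio scaling, and the dashed line is the median of all genes tested (0.41 in tibialis anterior). Itga7 lies right of 0 and Itgb1bp2 left of 0 in every panel on both scales, while Itga6 and Itgb1 in tibialis anterior move to about 0 after scaling.

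These are whole-muscle values, and marker genes of other cell types were called as well, read here against the same shares of all genes. Of the endothelial genes 4 of 6 rose in the mock diaphragm. Of 5 smooth muscle and pericyte genes 4 rose there and 1, Rgs5, fell. For macrophages 2 of 5 rose (Mrc1 and C1qa), and for fibroblasts 1 of 5. Of 6 myofibre genes 3 rose there (Ckm, Ttn and Tnnt3) and Mb, myoglobin, fell (-0.58 ± 0.16), and of 3 Schwann cell genes tested 1 rose. After scaling 1 endothelial gene was higher and 1 lower in the mock diaphragm, and 2 smooth muscle and pericyte genes were higher and 1 lower. On that scale 2 macrophage genes were higher and 1 fibroblast gene was lower, while of the myofibre genes 0 were higher and 1 was lower and of the Schwann cell genes 0 were called. The summed TPM of the 5 macrophage genes was 113 to 396 in the cachectic and 70.1 to 164 in the non-cachectic mock diaphragm, with overlap. With rFibcd1 0 of 5 were called. In tibialis anterior 4 of 4 macrophage genes tested rose, 4 of 6 endothelial genes rose and 1 fell, and 3 of 5 smooth muscle and pericyte genes rose. Of the fibroblast genes 2 of 5 rose there, as did 2 of 3 Schwann cell genes. The myofibre genes Ttn and Tnnt1 rose in tibialis anterior, while Mb (-1.63 ± 0.41) and Acta1 (-0.87 ± 0.23) fell. After scaling it was 3 of 5 macrophage genes higher, 2 endothelial genes higher and 1 lower, and 2 smooth muscle and pericyte genes higher and 1 lower. On that scale 2 fibroblast genes and 1 Schwann cell gene were higher and 2 myofibre genes were lower. In soleus 3 of 5 fibroblast genes fell, with a summed TPM of 208 to 611 against 547 to 754, and 1 of 5 macrophage genes and 1 of 6 myofibre genes, Acta1, rose, while 0 of 3 Schwann cell genes were called. After scaling 0 myofibre genes were called in soleus. The part of these cell types in the members' values was not tested.

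Between rFibcd1 and mock diaphragm no member was called, in mice with either melanoma. In the cachectic diaphragm the count was 0 of 10 with limma (2 members had an unadjusted p under 0.05, Itga6 and Itgav) and 0 of 10 with Dunn tests, where 0.0447% of all genes tested were called with limma. Itga2b was at 0.609 to 4.29 TPM (median 1.53) with rFibcd1 and at 0.754 to 5.45 TPM (median 2.18) with mock, with overlap, and its log2 fold change was -0.13 with a 95% interval of -0.57 to 0.30. Itgb3 differed by 0.13 (-0.23 to 0.50) and Itgav by 0.27 (0.01 to 0.52, adjusted p = 0.457). Itga6 had the largest difference, at 14.1 ± 4.79 against 10.4 ± 1.47 TPM (SD, n = 10 each) and a log2 fold change of 0.34 (0.04 to 0.63, adjusted p = 0.418). Itga7 differed by -0.06 (-0.33 to 0.21), Itgb1 by 0.08 (-0.16 to 0.32), Itgb5 by -0.04 (-0.21 to 0.13), Itgb6 by 0.26 (-0.11 to 0.62) and Itgb1bp2 by 0.12 (-0.17 to 0.41). Itga5 differed by 0.24 (-0.09 to 0.58), and 1 rFibcd1 library, Dia1, was at 59.2 TPM while the other 9 were at 13.1 to 20.6 TPM. Without Dia1 the log2 fold change of Itga5 was 0.07 (adjusted p = 0.953). Within the high-state libraries alone (8 rFibcd1 and 9 mock) Itga6 (log2 fold change 0.51 ± 0.10, adjusted p = 0.0192) and Itgav (0.41 ± 0.12, adjusted p = 0.0454) were called higher with rFibcd1. The share of all genes called in that subset is not given here, so nothing particular to the members is read from these calls.

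In the non-cachectic diaphragm the count was also 0 of 10 with limma (2 at an unadjusted p under 0.05, Itgav and Itgb3) and 0 of 10 with Dunn tests, where 0.417% of genes were called with limma. Itga2b was at 0.600 to 2.36 TPM with rFibcd1 and at 0.617 to 3.81 TPM with mock, with a log2 fold change of -0.13 (-0.58 to 0.32). Itgb3 averaged 4.00 ± 1.36 against 2.67 ± 0.857 TPM (SD, n = 10 and 9) and its log2 fold change was 0.42 (0.05 to 0.80, adjusted p = 0.270). Itgav averaged 5.98 ± 0.504 against 4.71 ± 0.519 TPM, with a log2 fold change of 0.29 (0.03 to 0.55, adjusted p = 0.276). When only these 2 groups were fitted, Itgav (adjusted p = 0.00527), Itga7 (adjusted p = 0.0271) and Itga5 (adjusted p = 0.0446) were called higher, against 19.6% of genes. The median of all genes tested was itself at 0.15 in this comparison, and after scaling the log2 fold change of Itgav was 0.14. After scaling the lowest adjusted p of the members was 0.739.

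**Figure D4:**
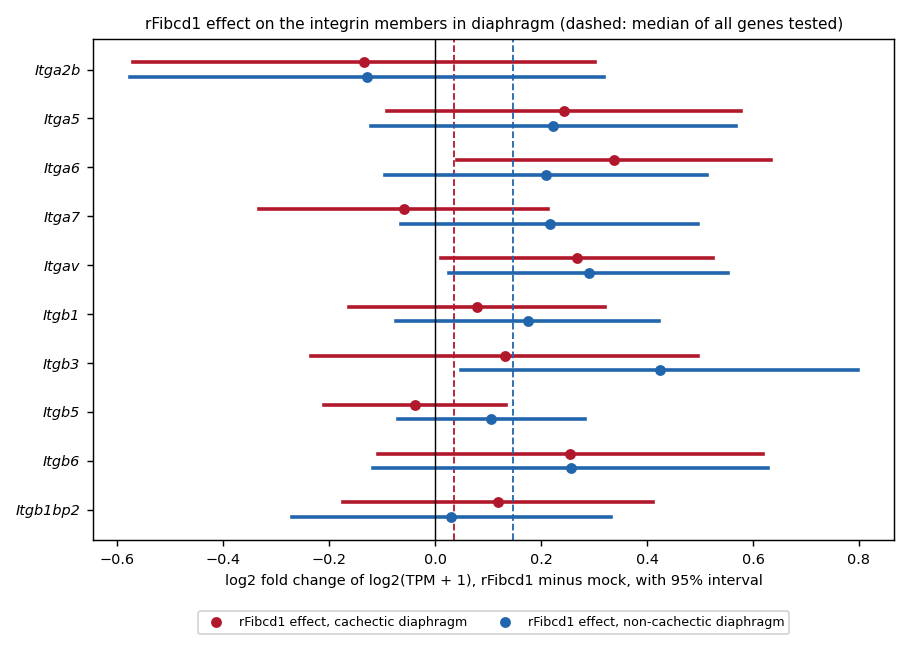
Log2 fold change of each member between rFibcd1 and mock diaphragm (log2(TPM + 1), with 95% intervals) in mice with the cachectic (red) and the non-cachectic (blue) melanoma. No member was called, and most intervals span 0, with Itga6 at 0.34 in the cachectic and Itgb3 at 0.42 in the non-cachectic diaphragm as the highest points of each colour.

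The interaction, which asks whether the rFibcd1 effect differs between the melanomas, was called for 0 of 10 members with limma (0 at an unadjusted p under 0.05), where 0.0223% of genes were called. Itga2b gave the interaction term -0.01 (95% interval -0.63 to 0.62), Itga7 -0.28 (-0.67 to 0.12) and Itgb3 -0.29 (-0.82 to 0.23). Each of these intervals spans 0.

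Among non-cachectic mice most members were called lower in tibialis anterior than in each of the other muscles as deposited, as were most of all genes tested. The tibialis anterior had the lowest mean of the 3 muscles for each of the 10 members. Against it the diaphragm was higher in 7 of 10 members (72.5% of the 13501 genes of the fit over 6 groups were called), among them Itgb3 (2.67 ± 0.857 against 0.400 ± 0.0779 TPM, log2 fold change 1.36 ± 0.23, adjusted p = 3.74e-06), Itga5 (12.4 ± 1.89 against 4.47 ± 1.01 TPM, 1.29 ± 0.23) and Itga7 (66.5 ± 6.86 against 29.9 ± 5.99 TPM, 1.14 ± 0.19). The median of all genes in this comparison was 0.44, and after scaling 5 members were higher and 1, Itgav, was lower (-0.35 ± 0.11, adjusted p = 0.00611), while Itgb1 and Itgb5 turned to -0.08 and -0.06 (70.9% of genes called). Of those not called on either scale, Itgb1bp2 went from 0.41 to -0.16 and Itgb6 from 0.52 to -0.0048. Both were called higher in the diaphragm in a fit of only these groups (Itgb1bp2 adjusted p = 6.42e-07, Itgb6 adjusted p = 0.000111, against 81.7% of genes), and Itgb6 also with a block by column number (0.48, adjusted p = 0.0337, against 76.9%). Against soleus, tibialis anterior was lower in 10 of 10 members (69.5% of genes called), with a median over all genes of -0.47. The call for Itgb1bp2 (adjusted p = 0.0497) was lost without any 1 of the 10 libraries. After scaling 3 members (Itga2b, Itga5 and Itga7) remained lower, and Itgb5 turned to 0.15 ± 0.12 (adjusted p = 0.278), where 53.6% of genes were called. The diaphragm and soleus were closer, with 2 of 10 members called (38.8% of genes). Itgb3 was higher in the diaphragm (2.67 ± 0.857 against 1.29 ± 0.308 TPM, log2 fold change 0.66 ± 0.23, adjusted p = 0.0233, lost without SOL65), and Itgav was lower (4.71 ± 0.519 against 6.80 ± 1.24 TPM, -0.44 ± 0.12, adjusted p = 0.00384). After scaling both kept their calls and Itga7 was called lower as well (-0.39 ± 0.15, adjusted p = 0.0298), against 47.1% of genes. In a fit of only these groups Itga5, Itga7, Itgb6 and Itgb1bp2 were also called lower in the diaphragm (55% of genes called). With a block by column number Itga5, Itga7 and Itgb6 were called lower too, and the share of all genes there is not given here.

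The melanoma effect itself was compared between muscles. Itgb5 and Itga6 were the members whose effect differed between tibialis anterior and soleus (2 of 10, against 20.4% of genes), by 0.95 ± 0.15 (adjusted p = 9.47e-05) and 0.72 ± 0.17 (adjusted p = 0.00430) on the log2 scale. After scaling Itgb5 kept its call (0.54 ± 0.16, adjusted p = 0.0276), Itga6 did not (0.35 ± 0.15, adjusted p = 0.130), and Itgb1 gained one in the other direction (-0.51 ± 0.10, adjusted p = 0.00110), against 11.6% of genes. With a block by column number 5 of 10 differed here, against 41.2% of genes, with Itga7 (0.75, adjusted p = 0.00651), Itgav (0.45, adjusted p = 0.0247) and Itgb1bp2 (-0.92, adjusted p = 0.0400) gained. The same 2 members differed between diaphragm and tibialis anterior (2 of 10, against 5.04% of genes), Itgb5 by -0.62 ± 0.13 (adjusted p = 0.00502) and Itga6 by -0.59 ± 0.15 (adjusted p = 0.0165), and neither was called after scaling (5.06% of genes). With the block it was 5 of 10, against 17.2% of genes, with Itga5 (-0.68, adjusted p = 0.0417), Itga7 (-0.64, adjusted p = 0.0266) and Itgb1bp2 (1.16, adjusted p = 0.0165) gained. Between diaphragm and soleus 0 of 10 were called with limma (2.52% of genes), and Itga5, with a larger rise in soleus, differed by -1.10 ± 0.32 (adjusted p = 0.0514), or by -0.94 ± 0.24 without TA8 and SOL8 (adjusted p = 0.0189). After scaling this became -1.25 ± 0.25 (adjusted p = 0.00214), and Itgb1 was called as well (-0.45 ± 0.09, adjusted p = 0.00232), against 3.87% of genes. With the block Itga5 was called here as deposited (-1.17, adjusted p = 0.00155). Without the block no difference of Itga7 between muscles passed the test with all libraries in the fit (adjusted p = 0.107, 0.947 and 0.0697 for diaphragm against tibialis anterior, diaphragm against soleus and tibialis anterior against soleus). Without TA6 it differed between diaphragm and tibialis anterior (-0.83 ± 0.27, adjusted p = 0.0390) and between tibialis anterior and soleus (0.89 ± 0.30, adjusted p = 0.0269). Without SOL8 it differed in the latter (0.90 ± 0.30, adjusted p = 0.0290). Tibialis anterior against soleus also gained Itga5 without TA8 (-0.85, adjusted p = 0.0491) and Itgav without SOL10 (0.54, adjusted p = 0.0449). Diaphragm against tibialis anterior gained Itgb1bp2 without Dia20 (adjusted p = 0.0417), TA6 (adjusted p = 0.0303) or TA9 (adjusted p = 0.0397).

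The other gene lists were counted on the values as deposited. Of the other integrin subunits, 16 of 17 listed were matched in the table. In the mock diaphragm 1 of the 13 that passed the filter rose, Itgb4, the beta chain of the hemidesmosome (4.83 against 3.17 TPM, log2 fold change 0.48 ± 0.12), against 33.5% of all genes called. In tibialis anterior 6 of 7 rose, against 60.2%, and after scaling 3 were higher and 1 lower there, against 40%. Itga9, a receptor chain for tenascin and osteopontin, rose in both limb muscles, from 1.52 ± 0.413 to 5.08 ± 1.01 TPM in tibialis anterior (log2 fold change 1.27 ± 0.14, adjusted p = 0.000141) and from 5.87 ± 0.945 to 22.8 ± 4.63 TPM in soleus (1.78 ± 0.14, adjusted p = 1.80e-05), where it was the 1 of 8 tested that changed, against 25.1% of all genes, and the same count held after scaling. Itgb2, the leukocyte beta chain, rose in tibialis anterior from 0.554 ± 0.256 to 2.74 ± 1.66 TPM (SD, n = 5 each).

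The integrin adaptors, which join beta tails to actin, rose in 8 of 22 tested in the mock diaphragm, in 9 of 19 in tibialis anterior and in 4 of 21 in soleus, where 1 fell. Tns1 (tensin 1, 129 against 83.3 TPM, log2 fold change 0.58 ± 0.14) led in the mock diaphragm, and Tln2, the talin of muscle, rose in mock diaphragm (0.45 ± 0.13) and in tibialis anterior (0.89 ± 0.17). In soleus Flnc, the filamin of muscle, rose from 498 to 1179 TPM (1.18 ± 0.19, adjusted p = 0.00153) and Lims1, also called PINCH1, fell (-0.52 ± 0.17). The filamin Flna led the adaptors in tibialis anterior (31.6 against 14.6 TPM, 0.99 ± 0.23).

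Among 19 listed integrin ligands, 2 rose in mock diaphragm, 5 of 15 tested rose in tibialis anterior, and 2 rose and 2 fell of 16 in soleus. Lama5, a laminin chain, rose in all 3 muscles (log2 fold changes of 0.52 ± 0.10, 1.14 ± 0.21 and 0.45 ± 0.13). Vwf, the von Willebrand factor of endothelium and platelets, rose in mock diaphragm (15.6 against 7.61 TPM, 0.92 ± 0.16) and in soleus (0.77 ± 0.15). Fn1, the fibronectin that the Itga5 receptor binds, fell in soleus from 38.2 to 17.6 TPM (-1.23 ± 0.31, adjusted p = 0.0142), and the laminin chain Lama2, the main laminin of the muscle basement membrane, fell there by 0.49 on the log2 scale. Of 8 dystrophin complex genes, 3 rose in mock diaphragm, 4 rose and 1 fell in tibialis anterior, and 2 rose and 1 fell in soleus. Sgca and Dag1, sarcoglycan and dystroglycan chains, rose in all 3 (Sgca by 0.55 ± 0.12, 0.54 ± 0.18 and 0.64 ± 0.14 on the log2 scale), while Sspn fell in tibialis anterior (-0.35 ± 0.13) and soleus (-0.33 ± 0.11).

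The counts of adaptors, ligands and dystrophin complex genes lay near or below the shares of all genes called in each of the 3 muscles (33.5%, 60.2% and 25.1%). The 3 of 8 dystrophin complex genes in soleus were farthest above, and nothing particular to these lists is read from the counts. After scaling 16.5%, 40% and 28.6% of all genes were called in mock diaphragm, tibialis anterior and soleus. The adaptors then gave 0 higher and 2 lower in mock diaphragm, 5 and 5 in tibialis anterior and 4 and 1 in soleus. The ligands gave 2 higher and 1 lower, 2 and 3, and 2 and 4 in the same order, and the dystrophin complex 0 and 1, 0 and 2, and 2 and 1. Tns1 (0.34 ± 0.15) and Tln2 (0.21 ± 0.13) were then not called in the mock diaphragm, and Sgca and Dag1 were called in soleus only. Lama5, Vwf and Sspn kept each of the calls named above, as did Itga9, Itgb4, Flna and Flnc. With rFibcd1 against mock, 0 genes of these 4 lists were called in the cachectic diaphragm as deposited and 1 ligand in the non-cachectic one. After scaling it was 1 ligand, lower, in the cachectic diaphragm and 0 genes in the non-cachectic one.

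The genes most like the other members, by the correlation of their deviations from group means over the 59 libraries, were given as a description because the libraries share composition and state. For Itga7 they were Lamp1 (r = 0.865), a lysosomal membrane protein, the proteasome subunit Psmd13 (0.863) and the tetraspanin Cd63 (0.855). For Itga5 they were Igf2bp2 (0.903), Uck2 (0.867) and Pvr (0.862), for Itgb1 Sdcbp (0.929), Rab31 (0.914) and the non-muscle myosin Myh9 (0.912), and for Itgb1bp2 Snrpn (0.823), Hhatl (0.807) and the water channel Aqp4 (0.801). Itgav was nearest to Ireb2 (0.909), Itga6 to Dennd4a (0.835), Itgb3 to Arrb1 (0.854), Itgb5 to Ankrd13b (0.679) and Itgb6 to Ak4 (0.803). Among the members themselves the highest correlation was that of Itga5 with Itgb1 (0.725), and the lowest was that of Itga7 with Itgb1bp2 (-0.636).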

How the data were processed

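RNA-seq was run on 59 mouse muscle samples, placed in 8 groups from the sample labels. The authors deposited TPM values for 47643 gene symbols. Per the study's methods, paired reads were trimmed, filtered and aligned to GRCm38 (mm10 in the submitters' processing notes) with CLC Genomics Workbench. The gene annotation is not given in the sources used here, and the labels and the methods name different kits and instruments. Each column sums to the same total, so depth is unknown and the precision it gives cannot be stated. Column numbers could not be tied to the replicate numbers of the labels, so each column was used as a member of its group without a number.

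Values were transformed to log2(TPM + 1), a scale that understates changes of low genes. Genes with TPM of at least 1 in as many samples as the smallest group of the fit were kept. Groups were compared with limma 3.58.1 (eBayes with a trend, R 4.3.3), two-sided, with Benjamini-Hochberg adjustment over all genes tested, and an adjusted p under 0.05 was called. The 4 diaphragm groups entered 1 fit, tibialis anterior and soleus 1 fit each, and the 6 groups without rFibcd1 1 fit for comparisons between muscles. Dunn tests, which the study used with Kruskal-Wallis tests, were an alternative for the diaphragm. They were run here without a Kruskal-Wallis step and adjusted over all genes, while the study set its cutoffs on p and fold change. The fits were tested on simulated data. Members under the filter were compared by exact permutation. Median-ratio scaling divided each library by the median ratio of its genes to their geometric mean. The other alternatives were a pseudocount of 0.1, no filter, a filter at a mean TPM of 5, library state as a term or high-state libraries only, fits of only the groups compared and leaving out each library. The block by column number and leaving out both number 8 limb libraries were chosen after seeing the data. Column numbers recur across muscles, and no label says that they mark 1 animal. The deviations of same-number libraries from their group means correlated over 0.1 in 10 of 10 pairs of diaphragm with tibialis anterior (0.133 to 0.502) and in 10 of 10 of tibialis anterior with soleus (0.196 to 0.493), so blocked values are given beside those results where they change a call. For diaphragm with soleus it was 8 of 10 (0.0101 to 0.450). The members, the gene lists and the tests were chosen with earlier results of these data known. Named genes were the members, the 2 highest and 2 lowest called genes of each list per melanoma comparison, and the 3 genes most like each member (5 for Itga2b) with a mean of at least 0.5 TPM. Not all genes this rule selects are printed. Itgam had no row of its own name, only 2 rows with a suffix. It was left out of the list counts, while both rows count among the alpha-subunit rows and in their summed TPM. The platelet list as first drawn up held 1 more gene, which is not reported here and entered no value. Gene positions were read from the GENCODE M21 annotation of GRCm38 and are 1-based.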

Additional observations from a re-analysis of the deposited data

Results flagged for a closer look

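Of 80 groups of 5 to 10 libraries (10 members, 8 groups), 16 held a library that stood alone at the upper end. The members share the same libraries, so the 16 are not independent of each other. The cachectic tibialis anterior library TA8 was one for Itga2b (1.03 TPM, next 0.545), Itga5 (28.1, next 9.41), Itga7 (178, next 72.7), Itgb1 (182, next 111) and Itgb3 (2.98, next 0.934). The cachectic soleus library SOL8 was one for Itga7 (213 TPM, next 135) and Itgb3 (5.99, next 2.07). Dia68, a non-cachectic mock diaphragm, stood alone for Itga2b (3.81 TPM, next 1.81), Itga6 (16.5, next 13.0) and Itgb3 (4.69, next 3.10), and the non-cachectic TA65 for Itga6 (7.66, next 6.03) and Itgb1 (99.7, next 85.7). The other 4 were Itga2b in Dia47 (non-cachectic rFibcd1, 2.36 TPM, next 1.50), Itga5 in Dia1 (cachectic rFibcd1, 59.2, next 20.6), Itgb5 in Dia3 (cachectic rFibcd1, 109, next 79.5) and Itgb1bp2 in Dia22 (cachectic mock, 291, next 173).

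The melanoma effect differed between muscles, by an interaction term in limma, in 4 results. Between diaphragm and tibialis anterior it differed for Itga6 (-0.59, or -0.37 after scaling with adjusted p = 0.0913) and Itgb5 (-0.62, or -0.36 after scaling with adjusted p = 0.134). Between tibialis anterior and soleus it differed for Itga6 (0.72, or 0.35 after scaling with adjusted p = 0.130) and Itgb5 (0.95, or 0.54 after scaling with adjusted p = 0.0276). As deposited, 5.04% of all genes were called in the former comparison and 20.4% in the latter.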

How the results depend on the processing

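The number of members called moved with the setting as follows. Where no share of all genes called stands beside a count, it is not given here, and the count is not read as a result about the members. For the melanoma effect in the rFibcd1 diaphragm it was 0 without a filter, after median-ratio scaling, with library state as a term, in high-state libraries only, in a fit of only the groups compared and with Dunn tests. In the mock diaphragm it was 4 after scaling (16.5% of all genes called), 0 in high-state libraries only and 5 in a fit of only the groups compared. That last fit gained Itga5, Itgb1 and Itgb3. For rFibcd1 it was 2 in high-state cachectic libraries and 3 in a fit of only the non-cachectic groups, where 19.6% of all genes were called. For diaphragm against soleus it was 0 with the filter at a mean TPM of 5 and 6 in a fit of only those groups (55% of all genes called). For tibialis anterior against soleus it was 3 after scaling (53.6%). For the difference of the melanoma effect it was 0 (diaphragm against tibialis anterior) and 2 (diaphragm against soleus) after scaling, against 5.06% and 3.87% of all genes. For the latter it was 1 in a fit of only those groups and 1 without both number 8 limb libraries. Scaling turned the sign of 24 member values. Of these 18 were called on neither scale, among them Itgb1 and Itgb5 in the mock diaphragm melanoma effect. The 6 others were the log2 fold changes of Itga6 (-0.0105) and Itgb1 (-0.075) in the melanoma effect in tibialis anterior, of Itgav (-0.35), Itgb1 (-0.0771) and Itgb5 (-0.0642) between diaphragm and tibialis anterior, and of Itgb5 (0.15) between tibialis anterior and soleus. The cause was not tested. In limma without a filter on low values Itgb1 lost its melanoma call in tibialis anterior (adjusted p = 0.0644). In soleus Itgav (adjusted p = 0.0817) and Itgb6 (adjusted p = 0.0735) lost theirs, and Itgb1bp2 lost its call between tibialis anterior and soleus (adjusted p = 0.0816).

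Leaving out 1 library at a time gave 1 to 5 members for the mock diaphragm (1 without Dia8 or Dia20, 5 without Dia22, 4 without Dia9 or Dia68), 0 to 1 for the rFibcd1 diaphragm, 0 for both rFibcd1 effects and the interaction, 4 to 7 for tibialis anterior, 3 to 7 for soleus (3 without SOL64, 4 without SOL65), 7 and 9 for diaphragm and soleus against tibialis anterior, and 1 to 3 for diaphragm against soleus. For the difference of the melanoma effect it gave 2 to 4 (diaphragm against tibialis anterior, 4 without TA6), 0 to 1 (diaphragm against soleus, 1 without Dia8, Dia20, Dia32, SOL6 or SOL10) and 2 to 3 (tibialis anterior against soleus).

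No paired analysis was possible within a muscle because the compared columns share no replicate number. Column numbers recur across muscles, and in 50 of 60 cases a library correlated best with its own number in another muscle. With a replicate block by column number the count was 5 for diaphragm against soleus, and 5, 1 and 5 for the difference of the melanoma effect (diaphragm against tibialis anterior, diaphragm against soleus, tibialis anterior against soleus). With the block 17.2% and 41.2% of all genes were called in the first and last of these differences. The shares for diaphragm against soleus are not given here, and its counts are not read as results about the members. For diaphragm against soleus the gains were Itga5 (-0.39, adjusted p = 0.0474), Itga7 (-0.47, adjusted p = 0.00578) and Itgb6 (-0.60, adjusted p = 0.0151) in level, and Itga5 (-1.17, adjusted p = 0.00155) in the melanoma effect. The block changed no other call of a member than these and those given beside the results. Library state could not be fitted in the limb muscles, where it coincides with the melanoma. Depth is unknown, which limits what can be said of Itga2b and Itgb3 at under 1 TPM.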
